A study of Mus musculus with 4 samples.

Results

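The array labelled DM-KO was compared with the array labelled DM-WT, a comparison of renal cortex between diabetic mice without and with the adhesion molecule ICAM-1. These are 2 of the 4 arrays of the study. DM-WT holds cortex of male C57BL/6J mice (ICAM-1+/+) given streptozotocin, and DM-KO holds cortex of male ICAM-1-/- mice on the C57BL/6J background given the same injection. Streptozotocin, a toxin of the insulin-producing beta cell, was given once into the peritoneum at 200 mg/kg in citrate buffer at 8 weeks of age, and kidneys were taken 12 weeks later, at 20 weeks of age. The other 2 arrays, ND-WT and ND-KO, hold cortex of wild-type and ICAM-1-/- mice of the same sex and age that received citrate buffer alone. Each group had 5 mice and 1 array, and the labels do not say whether the RNA of the 5 mice was pooled. The ICAM-1-/- animals carry the deletion in the germline and so in every cell, and injected mice entered the study if their blood glucose passed a set level a week later. With 1 array on each side there is no replicate, so the values below are sizes of difference between 2 arrays, without error between animals and without a test.

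All gene probes with a good spot on both diabetic arrays were used: 5932 of 10032 gene probes, which stand for 5881 genes, of which 5418 carry a gene symbol. A printing region (columns 44 to 48 of the first block) in which spots were low on the DM-WT array was left out. Levels are spot brightness above local background, normalized between the 4 arrays (normalized intensity), and differences are DM-KO minus DM-WT on the log2 scale, so that a negative value means lower in the knockout. Where 4 intensities of a gene are given in a row, they run from nondiabetic to diabetic wild type and then from nondiabetic to diabetic knockout. No probe on the array is named for Icam1, so the targeted transcript was not analysed here and the genotype labels were not checked by it.

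ICAM-1 is a surface protein of endothelium and of inflamed epithelium that binds the beta-2 integrins of leukocytes and so lets them stop on and cross the vessel wall. Its loss is known to reduce leukocyte entry into inflamed tissue, including the diabetic kidney. Interferons, which act on tubule, vessel and leukocyte alike, switch on a shared set of genes, many of which carry the interferon-stimulated response element in their promoters. Heat shock chaperones form a second well-known inducible set and are switched on by HSF1 when proteins misfold.

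Promoters of some interferon-induced genes that were lower in DM-KO are shown first, because interferon-induced genes had the lowest median of the lists in the main processing. With an offset of 50 added to intensities before the log, heat shock chaperones had a lower one (-0.36 against -0.33). The element was searched as GAAA, any 2 bases and GAAA again, on both strands, in RefSeq windows of 300 bases (250 before and 50 after the start, GRCm38.p6). It was present in 9 of the 21 measured interferon-induced genes that have a window (42.9%), against 4.08% of 4366 measured genes with a window and 3.44% of all 32851 windows. The 150 bases before the start are given 5′ to 3′ on the gene's strand for 4 of the 9 genes, with the matching letters in capitals. The 4 were at least 1.5-fold lower in DM-KO and hold a match in those bases. Ifih1 was also at least 1.5-fold lower, but its match lies elsewhere in its 300-base window, and it is not shown. Rsad2, Trim21, Igtp and Gbp2 carry the element too and were not 1.5-fold lower. Irf7, Lgals3bp, Rtp4 and Oasl2, which were lower, are not among the 9. Ifit1 is at chr19:34640739-34640888 on the plus strand, Ifit3 at chr19:34583379-34583528 on the plus strand, Tgtp1 at chr11:48992247-48992396 on the minus strand and Gbp3 at chr3:142559894-142560043 on the plus strand.
Ifit1: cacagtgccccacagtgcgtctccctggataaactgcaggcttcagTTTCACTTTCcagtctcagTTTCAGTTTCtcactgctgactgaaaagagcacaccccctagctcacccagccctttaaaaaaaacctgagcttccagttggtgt
Ifit3: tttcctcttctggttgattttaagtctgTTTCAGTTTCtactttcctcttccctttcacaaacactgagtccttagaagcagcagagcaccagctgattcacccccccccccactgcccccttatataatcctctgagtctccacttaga
Tgtp1: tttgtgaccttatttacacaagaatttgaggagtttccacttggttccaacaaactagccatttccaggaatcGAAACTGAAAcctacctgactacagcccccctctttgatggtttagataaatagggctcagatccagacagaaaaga
Gbp3: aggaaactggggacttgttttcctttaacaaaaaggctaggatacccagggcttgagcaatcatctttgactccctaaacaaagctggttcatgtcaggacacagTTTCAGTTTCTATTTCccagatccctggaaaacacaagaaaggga
Of the 150 bases shown, those of Ifit1 hold 2 matches, those of Gbp3 hold 2 that overlap, and those of Ifit3 and Tgtp1 hold 1 each. The 300-base window of Ifit3 holds 2. Gbp3 has another RefSeq start, with chr3:142560206-142560355 before it, whose window holds 0. Ifit1, Ifit3 and Gbp3 carry the element on the opposite strand, and Tgtp1 on its own. A match is a run of letters and not a measured binding site.

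Each diabetic array had a usable spot for 62.8% (DM-WT) and 66.2% (DM-KO) of gene probes. Raw signal of the added bacterial RNA was 0.557 times the ND-WT array's on DM-WT and 1.20 times on DM-KO, whereas the median subtracted intensity of gene probes was 37.7 and 46.3. Bacterial probes with at least 3 usable spots, 14 on DM-WT and 15 on DM-KO, gave the variation between spots of 1 probe. Its median was 7.50% (DM-WT) and 7.60% (DM-KO), which gives a spot error of 0.15 log2 for a difference. Whether it holds for dim gene probes was not tested. This error covers the spots and not the animals or the RNA preparation. Defining markers of proximal tubule (8 of 8 with a probe), distal tubule (3 of 3) and collecting duct (2 of 2) were usable on both diabetic arrays, whereas none of the 3 podocyte markers with a probe was usable on either.

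The levels of the 2 diabetic arrays were close, with a correlation of 0.987 across genes on the log2 scale, and genes are not independent replicates. The median difference was 0.01 and the standard deviation across genes 0.29, and 52.6% of genes lay within the spot error of 0. At least 2-fold, 17 genes (0.289% of 5881) were higher in DM-KO and 44 (0.748%) were lower. At least 1.5-fold, 115 genes (1.96%) were higher and 163 (2.77%) lower. In either direction, 51.5% of genes were higher and 48.5% lower by any amount. The larger differences were therefore mostly toward lower levels in the knockout: 72.1% of the 61 genes past 2-fold were lower. Adding an offset of 50 to intensities before the log (normexp) left 2 higher and 19 lower past 2-fold, 90.5% of them lower.

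**Figure D1:**
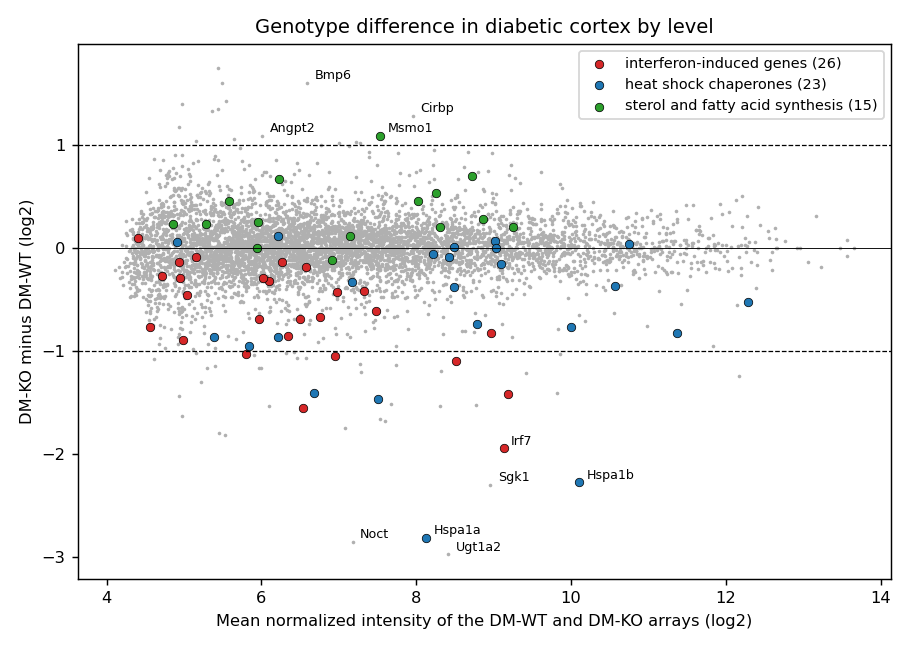
Difference between the 2 diabetic arrays (DM-KO minus DM-WT, log2) against their mean normalized intensity (log2), 1 point per gene, with dashed lines at 2-fold and coloured members of 3 gene lists. Most of the interferon-induced genes and heat shock chaperones lie below 0, with Hspa1a, Hspa1b and Irf7 among the lowest, and 14 of 15 sterol and fatty acid synthesis enzymes lie above it.

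Interferon-induced genes were lower in DM-KO as a group. Of 26 measured members, 25 were lower and 1 higher, 14 were at least 1.5-fold lower and 6 at least 2-fold lower, with a median of -0.64 against 0.01 over all genes. Over all genes 48.5% were lower, 2.77% at least 1.5-fold and 0.748% at least 2-fold. These shares are also the comparison for the diabetic counts of the other lists below. By role, 5 of 5 regulators were lower (median -0.68), 3 of 3 sensors of viral RNA (-0.60), 11 of 12 effectors (-0.61) and 6 of 6 guanylate-binding and immunity-related GTPases (-0.55). In 23 of the 26 the DM-WT array had the highest of the 4 levels. The share of all genes that were highest on DM-WT was not counted, and the 23 follow in part from the members being lower in DM-KO. The size depended on the processing: with the offset of 50 the median was -0.33, and without the filter on dim probes as well it was -0.18. Over the 9 members with a mean intensity of at least 100 it was -0.83. That mean includes DM-WT, where most of these genes are highest, so the cut favours members with a large difference.

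Irf7, the transcription factor that amplifies the interferon response, had normalized intensities of 158, 1101, 174 and 286. The DM-WT array stood far above the other 3, and DM-KO was 3.85-fold below it. Lgals3bp, a secreted glycoprotein that binds galectins, read 201, 954, 220 and 357, 2.67-fold lower in DM-KO than in DM-WT. Ifit1, an RNA-binding antiviral protein, read 33.7, 160, 31.0 and 54.4, and its relative Ifit3 read 170, 536, 203 and 251. These are differences of -1.55 and -1.09 between the diabetic arrays, and both genes were highest on DM-WT with DM-KO second. Rtp4, a chaperone of receptors that interferon induces, differed by -1.05 and Oasl2, a relative of the antiviral oligoadenylate synthetases, by -1.03. The transcription factor Irf9 differed by -0.68. Rsad2, the antiviral viperin, was the member that did not follow, at 0.10.

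**Figure D2:**
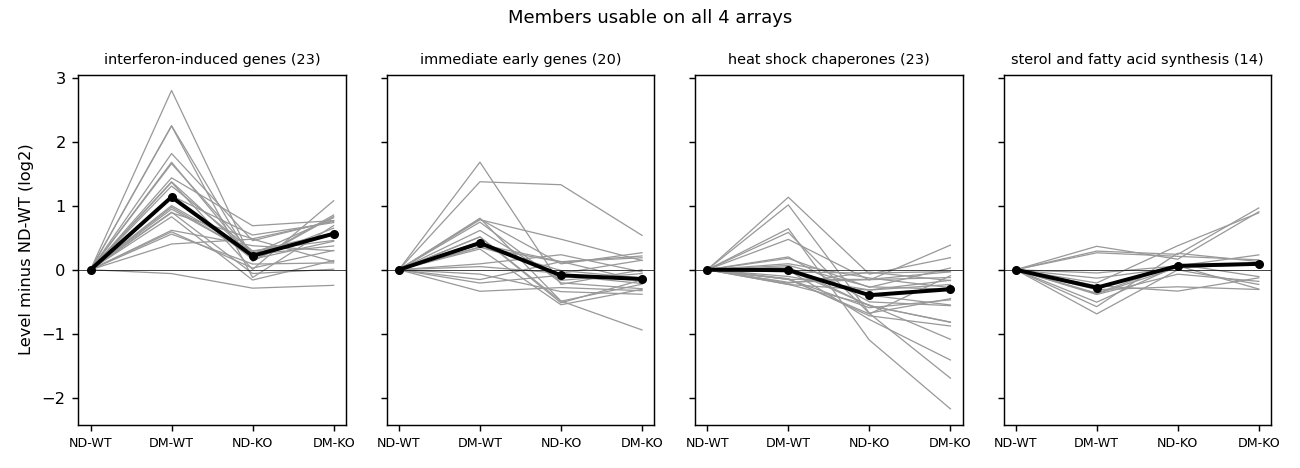
Level of each member minus its own level on the ND-WT array (log2) on the 4 arrays, for members usable on all 4; thin lines join the values of 1 gene, and the thick line is the median. For the 23 interferon-induced genes the median is 1.13 in diabetic wild type, against 0.22 and 0.56 in nondiabetic and diabetic knockout, and for the 14 sterol and fatty acid synthesis enzymes it is -0.28 in diabetic wild type, against 0.06 and 0.09.

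Genes of antigen presentation, many of which interferon also induces, were lower by smaller amounts. In the MHC class I list 14 of 15 measured members were lower, 3 of them at least 1.5-fold, with a median of -0.21. Those shares were 48.5% and 2.77% over all genes. B2m, the light chain of MHC class I, read 2332, 5066, 2619 and 2618, so the knockout arrays gave nearly the same level and DM-WT about 1.93-fold more than DM-KO. The ubiquitin-like Ubd was 1.62-fold lower in DM-KO (126 to 77.5), and the immunoproteasome subunits Psmb9 and Psmb8 differed by -0.51 and -0.41. The 4 measured members of the class II list, Ctss, H2-Eb1, H2-Aa and H2-Oa, differed by -0.52, -0.30, -0.27 and -0.04. The 26 measured subunits of the constitutive proteasome had a median of 0.06, and none was 1.5-fold apart in either direction. By any amount 21 of them were higher and 5 lower, against 51.5% and 48.5% of all genes.

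Chemokines and leukocyte markers were partly lower. The 22 chemokines, cytokines and their receptors had a median of -0.11. Of these, 15 were lower and 3 at least 1.5-fold lower, against 48.5% and 2.77% of all genes. Those 3 are attractants of T cells: Cxcl10 (30.7, 128, 37.2 and 60.9) and Cxcl9 (-0.77), which bind CXCR3, and Ccl5 (-0.83). The dendritic and T cell attractant Ccl19 was higher by 0.46. Of 15 macrophage and monocyte markers, 10 were lower with a median of -0.21, and Lyz2 (lysozyme, 126, 265, 127 and 167) was the one past 1.5-fold. The first-complement-component genes C1qa and C1qb differed by -0.47 each, and Cd14, the lipopolysaccharide co-receptor, by 0.43. The summed intensity of the 5 defining macrophage markers with a probe was 428 and 903 without and with diabetes in wild type and 463 and 653 in the knockout, with Adgre1 not usable on either diabetic array. In whole cortex, fewer macrophages and less RNA of these genes per cell cannot be told apart, and the part of these cells in the interferon result was not tested. Among lymphocyte markers Ighm, the immunoglobulin mu chain, was 2.89-fold lower (117 to 40.4), Jchain 1.83-fold lower and Cd79a, a chain of the B cell receptor, 2.03-fold higher, while the T cell markers Cd3e, Cd3g and Cd8a were not usable on both diabetic arrays. With the offset of 50 the difference of Ighm went from -1.53 to -0.89 and that of Cxcl10 from -1.07 to -0.68. The dimmer Cxcl9 and Ccl5 went to -0.30 and -0.32 and so no longer passed 1.5-fold.

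Genes of leukocyte adhesion, the family ICAM-1 belongs to, showed small differences. Of 12 measured members 7 were higher and 5 lower, none past 1.5-fold, with a median of 0.08. Among ligands on endothelium, Vcam1, which binds the integrin VLA-4, read 83.2, 90.2, 85.9 and 81.2, and Icam2 read 34.7, 37.4, 30.2 and 38.5. Neither differed by more than the spot error. Madcam1 (0.41), Pecam1 (0.31), Cd34 (0.29) and Esam (0.28) were the highest members. Itgb2, the beta-2 integrin chain that pairs to form the receptors of ICAM-1, differed by -0.04 at an intensity of 23.7 on DM-WT. Of the genes that flank Icam1 on its chromosome, 15 were measured among 60 listed neighbours, with a median of 0.02 and none past 1.5-fold.

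**Figure D3:**
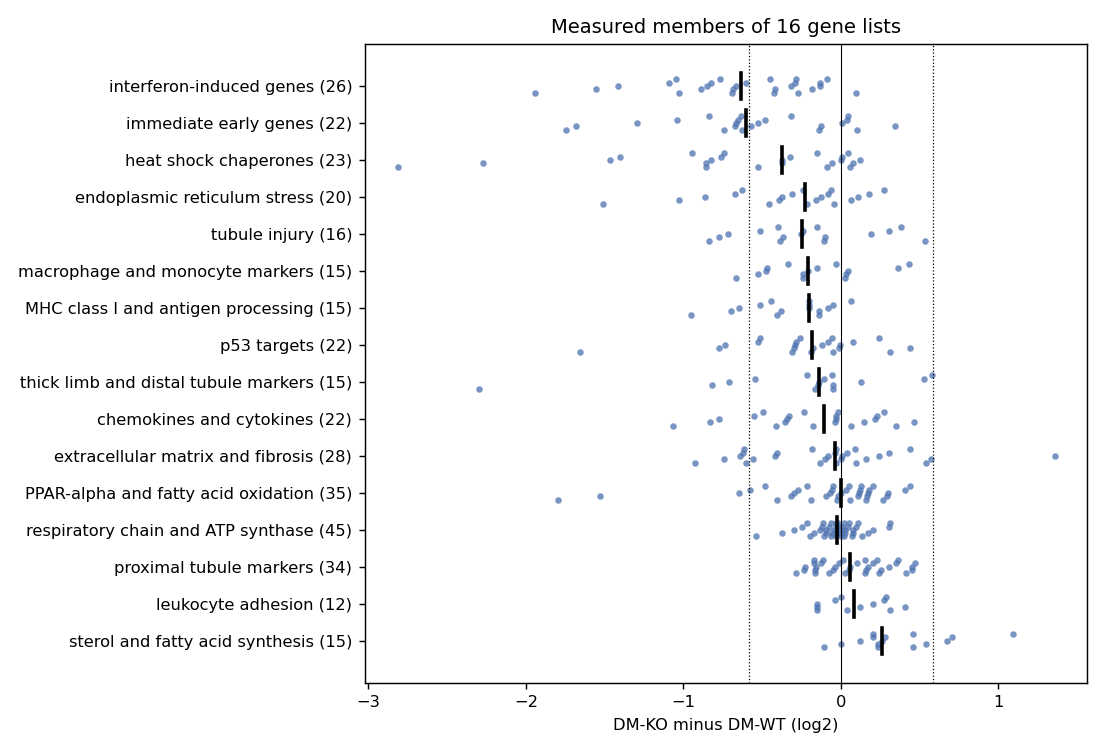
Difference between the diabetic arrays (DM-KO minus DM-WT, log2) of each measured member of 16 gene lists, with the list's median as a thick bar and dotted lines at 1.5-fold. Interferon-induced genes (-0.64), immediate early genes (-0.60) and heat shock chaperones (-0.37) have the lowest medians of those drawn, and sterol and fatty acid synthesis (0.26) the highest.

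Heat shock chaperones held 2 of the 5 lowest differences of named genes in the comparison. Of 23 measured members 18 were lower, 10 at least 1.5-fold and 4 at least 2-fold, with a median of -0.37. The shares over all genes were 48.5%, 2.77% and 0.748%. Hspa1a, an inducible HSP70, read 475, 741, 222 and 105. Its near-identical neighbour Hspa1b read 1623, 2429, 1011 and 502. Both knockout arrays lay below both wild-type arrays for each, and DM-KO lay lowest, 7.03-fold and 4.84-fold below DM-WT. The 2 genes are known to encode nearly the same protein, and whether each probe reads 1 or both transcripts was not tested. Upstream, 149 of the 150 bases before their starts are identical. The small chaperone Hspb1 differed by -1.46 and the HSP70 co-chaperone Dnajb1 by -1.40, followed by Hspb8 (-0.94), Bag3 (-0.86), Fkbp5 (-0.86) and Dnaja1 (-0.82). Of the cytosolic folding complex CCT, Cct2, Cct3 and Tcp1 differed by 0.01, 0.07 and 0.12. A heat shock element, searched on both strands as GAA, any 2 bases, TTC, any 2 bases and GAA, lay in the windows of 2 of 19 members (Hspd1 and Chordc1, 10.5%), against 0.641% of measured genes.

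Unlike the interferon-induced genes, the chaperones were lower in the knockout on the nondiabetic arrays as well. The chaperone median for ND-KO minus ND-WT was -0.36, with 25 of 26 measured members lower and 8 at least 1.5-fold lower, where 49% of 5974 genes were lower and 1.36% at least 1.5-fold lower. The interferon median on the nondiabetic arrays was 0.16, with 19 of 25 measured members higher, against 50.9% of genes, and 1 member at least 1.5-fold higher, against 1.07%. Endoplasmic reticulum stress genes went with the chaperones: 16 of 20 were lower in DM-KO (5 at least 1.5-fold, median -0.23) and 18 of 20 in ND-KO (4 at least 1.5-fold, median -0.24). Ddit3, the CHOP transcription factor of the unfolded protein response, read 186, 345, 102 and 121, with both knockout arrays below both wild-type arrays. Herpud1, a degradation adaptor, read 1130, 1325, 675 and 650. The secreted protein Manf read 793, 812, 354 and 446, and for it the nondiabetic difference (-1.16) was larger than the diabetic one (-0.86).

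Immediate early genes, the fast transcription factors and regulators that follow growth and stress signals, were lower in 17 of 22 measured members, 11 at least 1.5-fold and 4 at least 2-fold, with a median of -0.60. Across all genes these shares were 48.5%, 2.77% and 0.748%. Gadd45g read 142, 249, 101 and 74.2, and Rcan1, an inhibitor of calcineurin, read 109, 348, 92.7 and 109. DM-WT was the highest of the 4 arrays for both and for 15 of the 22 members. This count follows in part from the members being lower in DM-KO than in DM-WT. The share of all genes highest on DM-WT was not counted. The growth regulator Myc (-1.30), Cebpd (-1.04), Cebpb (-0.67), Klf4 (-0.67), the NF-kappaB inhibitor Nfkbia (-0.65) and the matricellular Ccn2 (-0.74) and Ccn1 (-0.64) were among the lower members, whereas Jund was higher by 0.34. On the nondiabetic arrays this list had a median of -0.09. With the offset of 50 its diabetic median was -0.33 and the difference of Myc -0.56.

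Sgk1, Noct, Tsc22d3 and Pck1 were among the 20 lowest genes. Sgk1, a kinase that raises sodium transport in the distal nephron, read 390, 1104, 213 and 224, a 4.93-fold difference between the diabetic arrays. Noct, a rhythmic phosphatase of the clock output, read 141, 390, 81.7 and 54.1, 7.22-fold lower in DM-KO. Both knockout arrays lay below both wild-type arrays for the 2 genes, and DM-WT lay highest. Tsc22d3, the glucocorticoid-induced leucine zipper protein, read 1124, 1040, 674 and 448, and Pck1, the rate-setting enzyme of gluconeogenesis, read 6325, 7104, 4036 and 2996. Pck1 was 2.37-fold lower in DM-KO. The 11 measured clock and output genes were split, 6 lower and 5 higher (median -0.19), and the nuclear receptor Rora was 1.67-fold higher. Across the 9 other processings tried, the difference of Sgk1 was between -2.33 and -2.08 and that of Noct between -2.88 and -2.09.

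**Figure D4:**
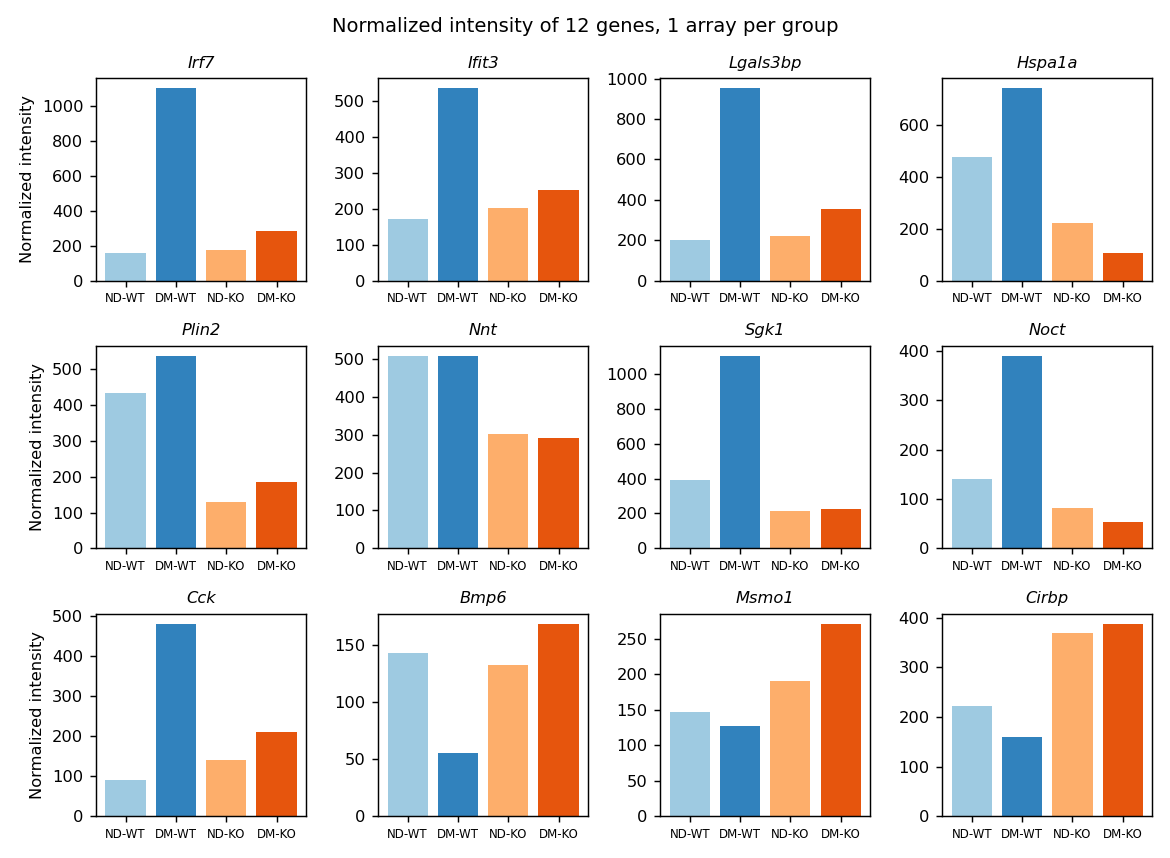
Normalized intensity of 12 genes on the 4 arrays, 1 bar per array and no error bars, since each group has 1 array; each panel has its own scale. Irf7, Ifit3 and Lgals3bp are highest on DM-WT, Hspa1a, Sgk1, Noct and Nnt are lower on both knockout arrays than on both wild-type arrays, and Bmp6 is lowest on DM-WT.

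The list of PPAR-alpha and fatty acid oxidation genes differed at single members more than as a group. Plin2, the coat protein of lipid droplets, read 433, 538, 130 and 186, 2.89-fold lower in DM-KO and with both knockout arrays low. Pdk4, the kinase that shuts off pyruvate oxidation, read 38.3, 81.6, 16.8 and 23.5. The 35 measured PPAR-alpha and fatty acid oxidation genes nevertheless had a median of 0.00, with 17 higher and 18 lower. By role, 5 of 8 uptake and storage members were lower (median -0.31), and of 21 oxidation members 11 were lower and 10 higher. Ugt1a2, a glucuronosyltransferase that shares its last exons with the other Ugt1a genes, so that its probe may read several of them, was not usable on the nondiabetic arrays and read 958 on DM-WT and 122 on DM-KO, 7.86-fold lower. Among the 4079 named genes with a geometric mean intensity of at least 50, Ugt1a2 had the lowest difference. Akr1c18, a reductase of progesterone, read 105, 86.9, 137 and 24.7, with the DM-KO array alone low. With the offset of 50 the difference of Akr1c18 went from -1.82 to -0.88 and that of Pdk4 from -1.80 to -0.85. Of 50 measured detoxification and NRF2 target genes 28 were higher and 21 lower, 2 at least 1.5-fold higher and 3 lower, with a median of 0.06. Among all genes 1.96% were at least 1.5-fold higher and 2.77% lower. The 2 higher ones were Gsr (glutathione reductase, 1.75-fold) and Nqo1 (a quinone reductase, 1.69-fold), and the 3 lower ones were Ugt1a2, Akr1c18 and Hmox1, the heme oxygenase (-0.83).

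p53 targets and injury markers were lower by small amounts in most members. Of 22 p53 targets 18 were lower, 3 at least 1.5-fold, with a median of -0.19, and Trp53 itself was higher by 0.44. Among all genes 48.5% were lower and 2.77% at least 1.5-fold lower. Pmaip1, the death-promoting protein Noxa, read 128, 330, 82.4 and 105. The cell cycle inhibitor Cdkn1a, not usable on either nondiabetic array, read 230 on DM-WT and 134 on DM-KO. Of 16 tubule injury genes 12 were lower (median -0.25), among them Hmox1 and Tnfrsf12a, the TWEAK receptor (-0.72).

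On the side of higher levels, sterol synthesis was the list with the highest median among lists of more than 10 measured members. Of 15 measured enzymes of sterol and fatty acid synthesis 14 were higher, 3 of them at least 1.5-fold, with a median of 0.26. Across all genes 51.5% were higher and 1.96% at least 1.5-fold higher. Msmo1, which removes methyl groups from sterols, read 147, 127, 190 and 271, 2.14-fold higher in DM-KO than in DM-WT. Cyp51 read 492, 330, 588 and 538, and the squalene epoxidase Sqle read 48.3, 59.1, 57.1 and 94.3. Dhcr7, which makes cholesterol from its last precursor, differed by -0.11 and was the member that was lower. On the nondiabetic arrays the list's median was 0.06.

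The highest gene of adequate brightness was Bmp6, a bone morphogenetic protein that sets iron balance and protects against fibrosis. Bmp6 read 143, 55.4, 132 and 168, so the DM-WT array was low and the other 3 lay between 132 and 168, and DM-KO was 3.04-fold above DM-WT. Cirbp, the cold-inducible RNA-binding protein, read 222, 159, 370 and 388, 2.44-fold higher in DM-KO, with both knockout arrays above both wild-type arrays. Cyp4a12a, a male-specific omega-hydroxylase of fatty acids, read 977, 294, 1064 and 561. The DM-KO level of Cyp4a12a was 1.91-fold that of DM-WT and below both nondiabetic arrays. The protease inhibitors Serpina1b and Serpina1e (1.90-fold and 1.78-fold), the androgen-dependent Pzp (25.8 to 78.4, 3.04-fold), the vessel-destabilizing ligand Angpt2 (2.13-fold) and the adenylyl cyclase Adcy6 (2.01-fold) were also higher. Pzp is dim on DM-WT, and its difference was 0.76 with the offset of 50. Under that offset the difference of Bmp6 was 1.06 and that of Angpt2 went from 1.09 to 0.62. Among the 20 highest genes of adequate brightness, those with a geometric mean intensity of at least 50, DM-WT was the lowest of the 4 arrays in 18, and among the 20 lowest it was the highest of the 4 in 18. Both sets were picked by their difference from DM-WT, so these counts follow in part from the ranking and do not single out that array.

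Proximal tubule, mitochondrial, ribosomal and matrix lists had medians close to that of all genes. The thick limb and distal tubule list held more lower members, 80% against 48.5% of all genes. At 60% and 57.1% lower, the mitochondrial and matrix lists lay nearer that share. The ribosomal list leaned the other way, with 37 of 55 members higher and 32.7% lower, none past 1.5-fold. The 34 proximal tubule markers had a median of 0.05 with none past 1.5-fold, the 45 respiratory chain and ATP synthase subunits -0.02 with none past 1.5-fold, and the 55 cytosolic ribosomal proteins 0.03. Of 15 thick limb and distal tubule markers 12 were lower, 3 at least 1.5-fold, with a median of -0.14, led by Sgk1, by the calcium buffer Pvalb (339, 569, 239 and 323) and by Slc8a1, the basolateral sodium-calcium exchanger (-0.71). Calb1, the calcium-binding calbindin, read 2909, 5454, 2262 and 3734. The 3 defining distal tubule markers (Slc12a3, Pvalb and Calb1) had a median of -0.55, and their summed intensity was 6683 on DM-WT and 4645 on DM-KO. In the collecting duct list (19 measured, median 0.08) the water channel Aqp4 (24.9 to 51.1) was 2.06-fold higher, a difference of 1.04 that became 0.44 with the offset of 50 and so no longer passed 1.5-fold, and the carbonic anhydrase Car2 1.54-fold higher. Of 28 extracellular matrix genes 16 were lower and 12 higher (median -0.04), with 6 at least 1.5-fold lower, among them Col6a1 (-0.93), Acta2 (-0.64) and Tgfbi (-0.62), and 1 at least 1.5-fold higher, Tnc (27.1 to 69.3). With the offset of 50 the difference of Tnc went from 1.36 to 0.63 and that of Col6a1 to -0.35. Under that offset Slc8a1 differed by -0.29, Acta2 by -0.49 and Tgfbi by -0.27, so these genes and Col6a1 no longer passed 1.5-fold. The cholecystokinin precursor Cck, a gut and brain peptide also made by tubule cells, read 89.7, 482, 141 and 211, 2.28-fold lower in DM-KO, and its receptor Cckar was 1.46-fold higher.

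The nondiabetic pair, ND-KO against ND-WT, shares no array with the diabetic pair and gives the same genotype difference without diabetes. It held fewer large differences: 5 genes at least 2-fold higher (0.0837% of 5974) and 15 lower (0.251%). Over 5689 genes measured on all arrays the differences of the 2 pairs correlated by 0.31 (Pearson) and 0.25 (Spearman), given as a description across genes, which are not independent. Of 140 genes at least 1.5-fold lower in DM-KO and 64 at least 1.5-fold lower in ND-KO, 26 were in both, 18.6% of the first list and 40.6% of the second. Among all genes of each pair, 1.36% were at least 1.5-fold lower in ND-KO and 2.77% in DM-KO. For higher levels 16 genes were in both, 14.95% of 107 and 27.6% of 58. There 1.07% of all genes were at least 1.5-fold higher in ND-KO and 1.96% in DM-KO. The 26 include Hspa1a, Hspa1b, Noct, Sgk1, Plin2, Pdk4, Ddit3, Manf, Pck1, Tsc22d3, Chordc1 and Nnt.

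Nnt, the mitochondrial transhydrogenase of which the C57BL/6J substrain carries a known deletion, read 508, 507, 302 and 291. The 2 arrays of each genotype were close and the genotypes did not overlap. The labels give C57BL/6J for both genotypes, and where the probe lies relative to the deletion was not analysed here. The lipid metabolism gene Tmem86a read 118, 105, 236 and 214 and was likewise split by genotype, 2.04-fold higher in DM-KO. Stra6l, a retinol transporter relative, read 21.0, 43.4, 64.2 and 76.1. The interferon-induced genes, Irf7 first, were by contrast split by the DM-WT array.

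**Figure D5:**
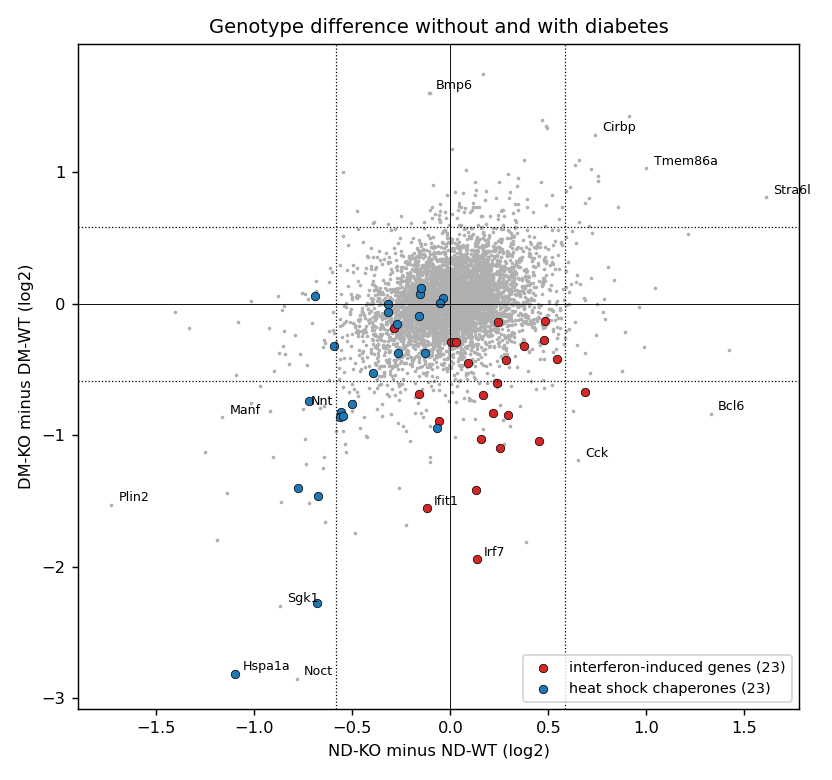
Genotype difference on the diabetic arrays (DM-KO minus DM-WT, log2) against that on the nondiabetic arrays (ND-KO minus ND-WT, log2) for 5689 genes, with dotted lines at 1.5-fold. Heat shock chaperones (blue) lie mostly to the lower left, lower in both, whereas interferon-induced genes (red) lie mostly below 0 on the diabetic axis and to the right of 0 on the nondiabetic one.

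Genes with a usable spot on 1 diabetic array add bounds. Of probes outside the low printing region, 369 were usable on DM-KO alone and 101 on DM-WT alone, and set against the dimmest usable spot, or the dim spot's own value where that was higher, 9 were at least 2-fold higher and 19 at least 2-fold lower in DM-KO. Uhmk1, a kinase of splicing factors, was at least 9.77-fold higher, at 397 on DM-KO with spots of 41.5 and 40.6 on ND-WT and DM-WT that did not pass. Hspe1, the mitochondrial chaperonin HSP10, was at least 11.2-fold lower, at 161 on DM-WT, 152 on ND-WT and 166 on ND-KO against 2.99 on DM-KO. Each of these rests on a single spot on 1 array. In the printing region left out, 11 of 237 probes were at least 2-fold higher and 1 lower when the region was kept. Elsewhere, under the same processing, 15 of 5932 probes were at least 2-fold higher and 47 lower. The standard deviation of the differences was 0.62 in the region and 0.29 elsewhere. These 11 are therefore not counted as differences between the groups.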

How the data were processed

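Total RNA of renal cortex was hybridised to CodeLink one-colour bioarrays, 1 array per group, scanned with an Axon GenePix scanner per the labels. The authors deposited each array's scanner output per spot, an intensity (mean signal and median background) with a quality flag per the file headers, and a value table. That table holds ratios: each deposited ratio equals the subtracted intensity divided by 1 constant per array (38.1 for DM-WT and 46.9 for DM-KO, 100% of compared values within 0.1%), and the rule behind the constant is not given in the sources used here. Column medians of the table were 0.926 for ND-WT, 0.930 for DM-WT, 0.929 for ND-KO and 0.930 for DM-KO. Its direction and scale are those of the scanner values.

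Here background median was subtracted from signal mean, poor spots were set missing, gene probes outside columns 44 to 48 of block 1 were quantile normalized over the 4 arrays (limma 3.58.1 in R 4.3.3), log2 was taken of the deposited intensities so normalized, and probes of flag 0 on both arrays were averaged per gene. The steps recovered known fold changes planted in the brighter probes of simulated data. Recovery of smaller differences, or of differences in dim probes, was not tested, and the simulation held no error between animals. Of 10032 gene probes 9209 had 1 symbol, 1 several and 822 none.

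Genes were named by rule: the 20 highest and 20 lowest with a geometric mean intensity of at least 50, the 5 largest bounds each way among those of at least 100 (1 each way qualified), in each list at most 6 members, those farthest from 0, all measured adhesion genes, and Icam2, Nnt, Cck and its receptors. Other members named beside them, and genes shared by both genotype comparisons, were chosen after their values were seen. The members and gene lists were chosen with earlier results of these data known. Alternatives tried were normexp with an offset of 50, median scaling, cyclic loess, quantile over the diabetic arrays, the value table, the printing region kept, intensity of at least 100, no filter on dim probes, and the brightest probe. Sequences are RefSeq's (GRCm38.p6). The number of arrays limits the precision.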

Additional observations from a re-analysis of the deposited data

Results flagged for a closer look

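For 4 genes the genotype difference was at least 1.5-fold in opposite directions on the diabetic and nondiabetic arrays; the difference between the 2 was not tested, since each group has 1 array. Cck differed by -1.19 with diabetes and 0.65 without. Bcl6, a transcriptional repressor of lymphocytes and of metabolic genes, differed by -0.84 and 1.33, Tmprss6, the membrane protease that lowers hepcidin, by -0.82 and 0.62, and Iigp1, an interferon-induced GTPase, by -0.67 and 0.69.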

How the results depend on the processing

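No paired analysis was possible because each group has 1 array. The median of all genes moved by less than 0.1 log2 under each of the 9 alternatives. Each of them brings the arrays to a similar level, so this follows in part by construction and does not bear on single genes. Of 89 named genes past 1.5-fold, 89 kept their direction under every alternative in which they were measured. In those alternatives 59 stayed past 1.5-fold. Not every gene was measured in each: dim genes, for example, dropped out at intensity of at least 100. Genes higher and lower at 2-fold numbered 2 and 19 with normexp at offset 50 (37 and 62 at 1.5-fold), 6 and 25 at intensity of at least 100 (41 and 68), and 3 and 23 with normexp over dim probes too (39 and 73). The value table gave 11 higher and the printing region kept gave 26. The share lower at 2-fold was 72.1% in the main setting, 90.5% with normexp, 88.5% without the filter, 78.8% with the value table and 64.9% with the region kept. With normexp the median was -0.33 for interferon-induced genes and -0.33 for immediate early genes. At intensity of at least 100 medians were -0.83 for interferon-induced genes, -0.47 for macrophage markers, -0.26 for TGF-beta and BMP signalling, -0.46 for clock genes, -0.30 for adipocyte markers and -0.70 for other cell types. Without the filter medians were -0.18 for interferon-induced genes, -0.25 for immediate early genes, -0.12 for MHC class II, -0.095 for tubule injury, 0.0096 for Cyp4 enzymes, 0.10 for sterol synthesis, -0.028 for other cell types and 0.018 for the cholecystokinin list, over more, dimmer genes. Dim probes limit these values: the offset shrinks differences by construction, and with 1 array per group the spread between animals is unknown.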
